A study of Mus musculus with 60 samples.

Results

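The genes that make cholesterol and control its level in the cell were followed through adipocyte differentiation, 32 genes out of 24982 measured. They were taken by symbol from a fixed list, and all 32 were found and passed the filter on low values in both tables of the study. By role they are 18 enzymes that make cholesterol from acetyl-CoA, 5 genes of the SREBP control system, 5 genes of the LXR and efflux arm, and 4 genes of cholesterol transport and esterification.

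Cholesterol synthesis runs from acetyl-CoA through mevalonate and farnesyl diphosphate to squalene, and then through lanosterol to cholesterol. The pathway is set by SREBP transcription factors, which are held in the endoplasmic reticulum by INSIG proteins and their escort SCAP when sterols are plentiful, and are cut free to switch on the enzyme genes when sterols run short. LXR nuclear receptors work in the other direction, sensing oxysterols and inducing the ABC transporters that move cholesterol out of the cell. Adipocytes are known to store much of the free cholesterol of the body, largely at the surface of their lipid droplets.

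The study sequenced polyadenylated RNA of C3H10T1/2 cells, a mouse embryonic mesenchymal line, and its title concerns TET1, an enzyme that oxidises 5-methylcytosine in DNA. The groups were Tet1-KO cells and wild-type (WT) cells in a first table, and 23-Tet1, 23-CATA and 23-NC cells in a second, each at days 0, 2, 4 and 6 with 3 libraries a group. All 5 populations were induced in 10% fetal bovine serum for 48 h with insulin at 10 µg/ml, rosiglitazone at 1 µM, dexamethasone at 1 µM, IBMX at 0.5 mM and T3 at 1 nM, and were kept in insulin at 5 µg/ml after that. The labels do not explain the 23- names, do not say how Tet1 was lost or whether a population is 1 clone, and do not say that replicates were separate cultures, so the p-values reflect the spread among samples and nothing wider. The genotype tag of 11 of the 12 23-Tet1 samples differed from the title, and the title was used.

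The 250 bases before the annotated start of 3 of the genes described below are given here. Hmgcs1 encodes the enzyme that makes HMG-CoA, and Insig1 encodes the sterol-dependent brake on SREBP. Cyp51 had the largest ratio of day 4 to day 6 mean among the enzymes in WT, 23-CATA and 23-NC cells. The sequences are from RefSeq, build GRCm38.p6, written 5′ to 3′ on the strand of the gene. Capitals mark matches on either strand to TCACNCCAC, a form of the sterol regulatory element, and to CCAAT, the core bound by the SREBP partner NF-Y, and no match of one overlaps one of the other. Hmgcs1 lies at chr13:119690101-119690350 (plus strand), Cyp51 at chr5:4104698-4104947 (minus strand) and Insig1 at chr5:28071162-28071411 (plus strand). In the annotation used to find shared exons, Cyp51 starts at 4104746 and Insig1 at 28071363, inside these stretches. The CCAAT match of Cyp51 lies within the gene by that annotation.
Hmgcs1: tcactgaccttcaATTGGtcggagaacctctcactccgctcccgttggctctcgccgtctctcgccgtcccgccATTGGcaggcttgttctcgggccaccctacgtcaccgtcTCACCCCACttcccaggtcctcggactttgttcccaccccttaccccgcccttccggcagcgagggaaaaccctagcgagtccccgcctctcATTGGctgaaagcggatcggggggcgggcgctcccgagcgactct
Cyp51: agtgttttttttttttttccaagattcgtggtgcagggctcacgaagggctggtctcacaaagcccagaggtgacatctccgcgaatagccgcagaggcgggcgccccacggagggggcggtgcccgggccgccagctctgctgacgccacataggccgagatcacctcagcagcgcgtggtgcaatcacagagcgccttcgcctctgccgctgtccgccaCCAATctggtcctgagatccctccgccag
Insig1: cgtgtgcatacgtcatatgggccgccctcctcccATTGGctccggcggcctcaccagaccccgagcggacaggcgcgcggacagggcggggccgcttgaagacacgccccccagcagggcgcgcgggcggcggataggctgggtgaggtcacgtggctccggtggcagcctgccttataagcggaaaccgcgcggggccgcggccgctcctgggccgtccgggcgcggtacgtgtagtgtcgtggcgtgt

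Promoter entries were found for 26 of the 32 genes. CCAAT on either strand was present in 14 of the 15 enzyme promoters with an entry (93.3%) and in 37.5% of the promoters of all 27025 genes of the same length. TCACNCCAC was present in 1 of these 15, that of Hmgcs1, and in 1.22% of all promoters. A match describes the letters only and is not a binding site.

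Expression is given in FPKM, which counts fragments per transcript length and library size, as the authors estimated it. Differences were tested with limma on log2(FPKM + 1), with p-values adjusted by Benjamini and Hochberg's method (Benjamini-Hochberg) over the 11911 genes tested in the first table or the 12231 in the second. An adjusted p under 0.05 made a call. Log2 differences are given relative to the median difference of all genes tested in the same comparison, ± the standard error, and means ± SD over 3 libraries. That median lay below 0 in all WT time points, at −0.39, −0.52 and −0.29 for days 2, 4 and 6, and in Tet1-KO cells at −0.10, −0.29 and −0.38. It was −0.16, −0.34 and −0.22 in 23-CATA cells, −0.12 in 23-Tet1 cells at day 6, 0.17 and −0.20 for Tet1-KO against WT at days 2 and 6, and 0.11 for 23-CATA against 23-NC at day 0. The p-values and standard errors are those of the fitted difference before that median was taken off. A p-value therefore does not test the printed difference, and the 2 part most where the median is far from 0. Calls were made as deposited. Counts over the 32 genes, the enzymes and neighbouring pathways are therefore followed by those after median-ratio scaling, which moves that median towards 0.

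Tet1 itself ranged from 0 to 0.26 FPKM in Tet1-KO libraries, against 0.01 to 1.12 FPKM in WT libraries, and from 4.04 to 7.46 in 23-Tet1 and 5.75 to 21.56 in 23-CATA, against 0 to 0.12 in 23-NC. Depth, estimated from the smallest spacing of FPKM values, was 11.1 to 18.6 M fragments in 58 libraries. It was lowest in Tet1-KO day 4 replicate 2 and Tet1-KO day 6 replicate 2, at 8.5 and 2.4 M fragments. In these the estimate was unclear, since fewer of the low values used lay at 1 spacing (17.4% and 13.8%) than in any other library. Tet1-KO day 6 replicate 2 stood apart, with 11805 genes above 0, where the first table's other libraries had 13837 to 14954. Tet1-KO libraries of days 2, 4 and 6 also differed widely among themselves, so results in them are given with and without single libraries. Mesenchymal markers were present, with Col1a1 at 20.2 FPKM or more and Pdgfrb at 3.78 FPKM or more in every library, while Ptprc of leukocytes, Adgre1 of macrophages, Cdh5 and Kdr of endothelium and Epcam of epithelium did not pass 0.11 FPKM in any. The other markers of these cell types reached at most 0.68 FPKM for Csf1r, 1.10 FPKM for Pecam1, 1.80 FPKM for Krt18 and 2.92 FPKM for Cdh1. Cd68, a lysosomal gene abundant in macrophages, differed from these and reached 45.98 FPKM in the first table and 132.32 FPKM in the second. In the second table Adipoq and Plin1 of adipocytes were each at 0 in 2 libraries and the mesenchymal marker Thy1 in 1. The part of Cd68 in the results was not tested. Of the genes described, Fdps, Fdft1, Cyp51, Tm7sf2, Srebf1 and Npc1 share exon sequence with another coding gene, and Acat2 has a close copy beside it, so their values may include reads of those neighbours.

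In WT cells nearly every enzyme of cholesterol synthesis rose during differentiation. At day 2, 13 of the 18 enzymes were called higher than at day 0, at day 4 17 of them, and at day 6 13 (15, 18 and 14 after median-ratio scaling), where 18.9%, 18.1% and 19.2% of all genes tested were called higher. No enzyme was called lower on any day, and 1 was at day 2 with library weights or with only these 2 groups in the fit. The enzymes' median log2 difference was 1.65 at day 2, 3.40 at day 4 and 2.19 at day 6, so that the set stood highest at day 4. The summed FPKM of the 18 enzymes was 213 to 239.9, 637 to 962, 2289 to 2397 and 834 to 1238 over the libraries of days 0, 2, 4 and 6. Sc5d, the sterol C5 desaturase, was the enzyme not called at day 4, with 8.97, 9.43 and 10.9 FPKM, against 6.82, 6.48 and 6.24 at day 0.

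**Figure D1:**
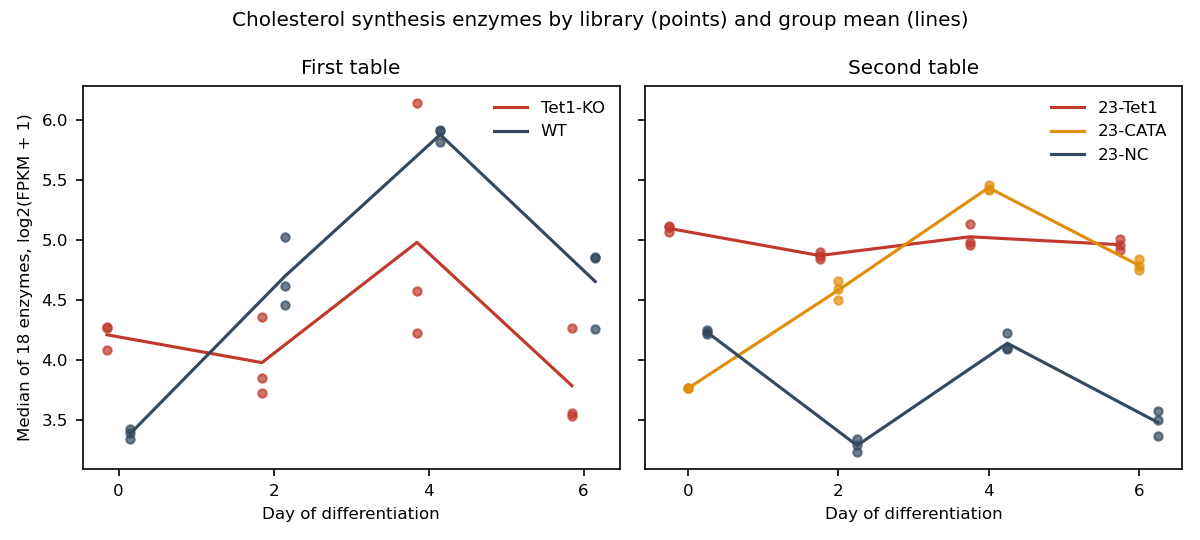
Median over the 18 enzymes of log2(FPKM + 1) in each library (points) and its group mean (lines), by day, in Tet1-KO and WT cells (left) and in 23-Tet1, 23-CATA and 23-NC cells (right). WT and 23-CATA lines peak at day 4, the 23-NC line dips at day 2, and the Tet1-KO points of day 4 are spread from 4.22 to 6.14.

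Among the early enzymes, Acat2, the cytosolic acetoacetyl-CoA thiolase, had 253, 266 and 264 FPKM at day 4, against 38.4, 36.7 and 36.2 at day 0 in WT cells. Hmgcs1, the HMG-CoA synthase, had 281, 256 and 284 FPKM at day 4, against 32.7, 30.4 and 28.6 at day 0. All day 4 libraries of both genes lay above all day 0 libraries, with log2 differences of 3.30 ± 0.26 (adjusted p = 3.6e-08) and 3.63 ± 0.49 (adjusted p = 1.6e-05). Fdps, which makes farnesyl diphosphate at the branch point to the nonsterol isoprenoids, had 540.0, 571 and 505 FPKM at day 4, against 19.7, 18.7 and 17.7 at day 0, a log2 difference of 5.29 ± 0.50 (adjusted p = 1.2e-07). This was the highest log2 difference among the 18 enzymes at that day. Pmvk and Mvd, the phosphomevalonate kinase and diphosphomevalonate decarboxylase, rose with it, with log2 differences of 4.75 and 3.99, and Mvk, the mevalonate kinase, by 1.85. Idi1, the isopentenyl diphosphate isomerase, averaged 9.33 ± 0.82, 24.1 ± 5.95, 54.1 ± 1.96 and 23.6 ± 5.44 FPKM at days 0, 2, 4 and 6.

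The late enzymes followed the same course but left the peak at different rates. Cyp51, the lanosterol demethylase, had 187, 161 and 161 FPKM at day 4, against 8.89, 7.84 and 7.36 at day 0, and averaged 8.03 ± 0.78, 39.2 ± 13.6, 169.8 ± 14.8 and 17.1 ± 5.20 FPKM at days 0, 2, 4 and 6. It was called higher than at day 0 on days 2 and 4 (log2 differences 2.50 ± 0.54 and 4.76 ± 0.54, adjusted p = 0.0022 and 1.3e-06) but not on day 6 (1.25 ± 0.54, adjusted p = 0.14). Fdft1, the squalene synthase, instead averaged 10.4 ± 0.97, 26.4 ± 7.84, 103 ± 11.99 and 113 ± 40.2 FPKM on the same days, and was the enzyme with its highest mean at day 6, while 17 had theirs at day 4. Tm7sf2, a sterol C14 reductase, averaged 3.30 ± 0.18, 7.28 ± 0.66, 25.4 ± 1.63 and 22.6 ± 7.02 FPKM and Msmo1, the sterol C4-methyl oxidase, 13.7 ± 2.34, 41.4 ± 13.9, 115 ± 4.42 and 74.1 ± 30.6 FPKM. The day 6 mean of both stayed above the day 2 mean, which was not so for Cyp51. Lss, the lanosterol synthase, Sqle, the squalene epoxidase, and Dhcr7, the 7-dehydrocholesterol reductase, rose at day 4 with log2 differences of 3.65, 2.99 and 4.30. Nsdhl and Hsd17b7, which act in C4 demethylation, and Ebp, the sterol isomerase, rose at day 4 with log2 differences of 2.83, 1.76 and 1.75.

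The control genes did not move as 1 group. Insig1 had 158, 186 and 182 FPKM at day 4, against 6.30, 6.30 and 6.56 at day 0 in WT cells, and rose by a log2 difference of 5.09 ± 0.58 (adjusted p = 1.4e-06), in the range of the enzymes. Insig2, its paralog, had 11.03, 11.7 and 15.2 FPKM at day 2, against 26.6, 24.8 and 23.5 at day 0, and was called lower at day 2 (−0.55 ± 0.37, adjusted p = 0.035) but not called at days 4 and 6, where it averaged 35.7 ± 0.62 and 42.4 ± 6.10 FPKM. Srebf1, the SREBP gene tied to fatty acid synthesis, was highest at day 2, averaging 16.8 ± 0.89, 54.7 ± 1.71, 43.03 ± 4.28 and 35.9 ± 5.86 FPKM over the days, and was called higher on all 3. Srebf2, the SREBP gene tied to cholesterol synthesis, had 9.25, 14.8 and 10.3 FPKM at day 2, against 20.4, 24.8 and 24.1 at day 0, and was called lower then (−0.58 ± 0.34, adjusted p = 0.019). At day 4, where the enzymes stood highest, Srebf2 had 17.7, 25.5 and 26.5 FPKM, a range that overlaps day 0. Scap was called lower on days 2, 4 and 6, with log2 differences of −0.33, −0.37 and −0.40, the last of these calls being lost without WT day 0 replicate 2 or 3 or WT day 6 replicate 2. After median-ratio scaling no control gene was called lower on any of the 3 days, and Insig2 was called higher at days 4 and 6. The day 2 call of Insig2 was lost without any 1 WT day 0 library or WT day 2 replicate 1 or 2, and that of Srebf2 without WT day 0 replicate 2 or WT day 2 replicate 1 or 3.

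Of the 5 genes of the LXR and efflux arm, Abca1, Abcg1 and Nr1h2 had their highest mean at day 6, Nr1h3 at day 4 and Mylip at day 0. Nr1h3, the LXRα gene, had 51.4, 65.04 and 60.5 FPKM at day 4, against 0.48, 0.49 and 0.42 at day 0. It averaged 0.46 ± 0.04, 4.34 ± 1.31, 58.97 ± 6.94 and 57.8 ± 5.32 FPKM over the 4 days. Its day 4 log2 difference of 5.87 ± 0.29 (adjusted p = 3.2e-11) was the highest of the 32 genes. Abca1, the transporter that loads cholesterol onto apolipoproteins, averaged 3.71 ± 0.72, 7.71 ± 0.62, 17.3 ± 0.37 and 30.8 ± 3.44 FPKM at days 0, 2, 4 and 6, and Abcg1, its partner for lipoprotein acceptors, 0.18 ± 0.08, 1.20 ± 0.05, 2.15 ± 0.33 and 5.37 ± 0.31 FPKM. At day 6, when these 2 stood highest, 17 of the 18 enzymes were past their highest mean. Nr1h2, the LXRβ gene, was not called on any day as deposited but was called higher at day 6 without Tet1-KO day 6 replicate 2 and at days 4 and 6 after median-ratio scaling, with log2 differences of 0.28, 0.72 and 1.10. Mylip, the LXR-induced ubiquitin ligase that degrades lipoprotein receptors, had 3.56, 3.48 and 4.61 FPKM at day 2, against 19.9, 21.3 and 19.8 at day 0, a log2 difference of −1.74 ± 0.35 (adjusted p = 3.6e-05). Its mean was back at 16.1 ± 2.44 FPKM at day 6.

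Of the transport genes, Npc2, the lysosomal cholesterol carrier, had the highest mean FPKM of the 32 in WT cells at days 0, 2 and 6, with Fdps above it at day 4, and rose to 468 ± 33.6 FPKM at day 4, against 279.6 ± 14.8 at day 0. With quantile normalisation that call was lost at days 2 and 4. Npc1, the membrane partner of NPC2, rose at day 6, with 14.3, 17.6 and 17.4 FPKM, against 5.76, 7.0 and 7.08 at day 0. Soat1, which esterifies cholesterol, averaged 16.9 ± 1.06, 8.61 ± 1.42, 7.19 ± 1.03 and 25.99 ± 6.02 FPKM over the days and was called lower at days 2 and 4 (log2 differences −0.51 and −0.62). After median-ratio scaling neither call of Soat1 was made, and the day 2 call was lost without WT day 2 replicate 2. Stard4, a cytosolic sterol carrier, was not called on any day as deposited.

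Over the 32 genes, 17 were called higher and 5 lower, where 18.9% and 43.2% of all genes tested were called in these directions at WT day 2 (20 and 1 after median-ratio scaling). At WT day 4, 23 were called higher and 3 lower, where 18.1% and 49.2% of all genes tested were called in these directions (27 and 1 after median-ratio scaling). At WT day 6, 20 were called higher and 1 lower, where 19.2% and 37.4% of all genes tested were called in these directions (24 and 0 after median-ratio scaling). The enzymes' share of higher calls lay above that of all genes on each day. The day 2 count depended on single libraries. In place of 13 enzymes, 8 were called without WT day 2 replicate 2, the highest of its group for 17 enzymes. Without WT day 0 replicate 2 or 3 there were 9, and without WT day 0 replicate 1 there were 11. Adipocyte markers moved with these groups: all 8 rose on each day, and their summed FPKM was 93.9 to 234 at day 0 and 89612 to 108914 at day 4, while all 5 mesenchymal markers fell. In bulk RNA, a change in the share of cells of a type and a change of RNA per cell cannot be told apart, and the part of the markers in the sterol genes' changes was not tested.

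**Figure D2:**
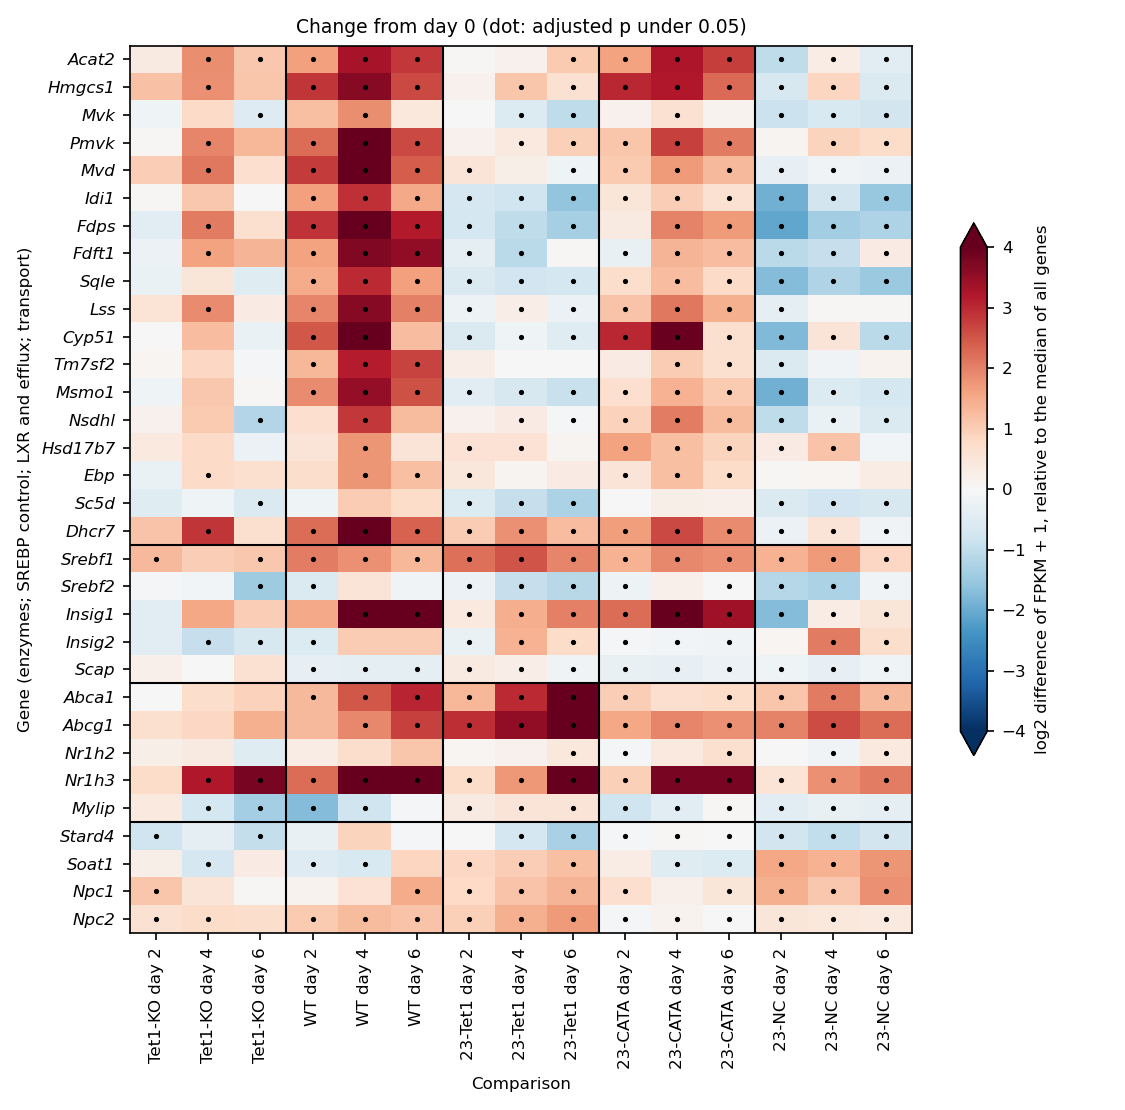
Log2 difference of FPKM + 1 from day 0, relative to the all-gene median, for the 32 genes (rows, grouped by role) at days 2, 4 and 6 in each of 5 populations (columns); a dot marks an adjusted p under 0.05. The enzyme rows are red in WT and 23-CATA cells at day 4 and of both colours in 23-Tet1 cells. They are mostly blue in 23-NC cells at day 2.

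In Tet1-KO cells fewer enzymes were called higher than at day 0 than in WT cells. None of the 18 was called at day 2, 9 were called higher at day 4, and at day 6 1 was called higher and 3, Mvk, Nsdhl and Sc5d, lower, where 7.72%, 12% and 9.55% of all genes tested were called higher at days 2, 4 and 6 and 36% lower at day 6. After median-ratio scaling 1, 11 and 4 enzymes were higher on these days and none lower. With library weights 4, 8 and 0 enzymes were higher, and with only the 2 groups in the fit 3, 9 and 0, so the count of 0 at day 2 depends on the fit. The median log2 difference of the enzymes was 0.05, 1.17 and 0.18 at days 2, 4 and 6. The summed FPKM of the enzymes at day 4 was 584 to 2104 over the 3 Tet1-KO libraries, against 2289 to 2397 in WT. Tet1-KO day 4 replicate 2 stood alone at the upper end of its group, and without it 4 enzymes in place of 9 were called higher than at day 0 and 1 lower.

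Among the 32 genes, 3 were called higher and 1 lower, where 7.72% and 14.8% of all genes tested were called in these directions at Tet1-KO day 2 (4 and 0 after median-ratio scaling). At Tet1-KO day 4, 11 were called higher and 3 lower, where 12% and 34.7% of all genes tested were called in these directions (15 and 1 after median-ratio scaling). At Tet1-KO day 6, 3 were called higher and 7 lower, where 9.55% and 36% of all genes tested were called in these directions (8 and 3 after median-ratio scaling). Nr1h3 was called at days 4 and 6, with 14.4, 13.8 and 17.8 FPKM at day 6, against 0.74, 0.23 and 0.61 at day 0 in Tet1-KO cells. Acat2 was the enzyme called higher at day 6, with 91.4, 60.4 and 55.4 FPKM, against 42.2, 38.5 and 43.1 at day 0, and this call was lost without any 1 of the 3 day 0 libraries or day 6 replicate 1, without the filter, with library weights and with only these 2 groups in the fit. Srebf2 had 4.36, 1.68 and 6.60 FPKM at day 6, against 12.8, 13.2 and 22.9 at day 0, a log2 difference of −1.42 ± 0.34 (adjusted p = 6.1e-04). It was not called with only these 2 groups in the fit. Without the library that stood apart, Tet1-KO day 6 replicate 2, 7 genes were called higher and 4 lower at day 6. Of the other libraries, 6 genes were called at day 6 without day 0 replicate 1 or replicate 2 and 4 without day 0 replicate 3. At day 2 the 4 calls became 2 without any 1 day 0 library or day 2 replicate 2, and at day 4 the 14 calls became 9 without day 4 replicate 2.

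Set against WT on the same day, Tet1-KO cells had 2 enzymes higher at day 0, as after median-ratio scaling, where 5.83% of all genes tested were called higher, and none higher afterwards. Fdps had 57.03, 68.6 and 48.1 FPKM in Tet1-KO cells at day 0, against 19.7, 18.7 and 17.7 in WT, a log2 difference of 1.66 ± 0.50 (adjusted p = 0.036). Ebp was the other gene called at day 0 (0.90 ± 0.19, adjusted p = 0.0065). The groups did not overlap for either gene. Of the 18 enzymes, 16 lay above the median difference of all genes, and 16 were not called with all 8 groups in the fit, while 14 enzymes were called higher with only the 2 day 0 groups and 13 with library weights. Across all 32 genes, 2 were called higher and 0 lower, where 5.83% and 11% of all genes tested were called in these directions at day 0 (3 and 0 after median-ratio scaling). The day 0 count was 1 without any 1 WT day 0 library or Tet1-KO day 0 replicate 1 or 2, 3 without Tet1-KO day 0 replicate 3, and 6 without Tet1-KO day 6 replicate 2. Fdps was the gene whose call was lost in the first of these settings.

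At day 2 5 enzymes were called lower in Tet1-KO cells: Acat2, Pmvk, Mvd, Fdps and Cyp51 (5 after median-ratio scaling). Of these, only Fdps had been called higher in Tet1-KO cells at day 0. Pmvk had 24.5, 31.4 and 35.7 FPKM in Tet1-KO cells, against 78.5, 99.2 and 62.3 in WT, a log2 difference of −1.52 ± 0.40 (adjusted p = 0.021). Abca1 had 1.85, 3.13 and 1.64 FPKM in Tet1-KO cells, against 7.13, 8.37 and 7.62 in WT (−1.63 ± 0.27, adjusted p = 0.0015). Mylip, in contrast, had 29.5, 12.3 and 18.8 FPKM in Tet1-KO cells, against 3.56, 3.48 and 4.61 in WT, and was higher in Tet1-KO (1.88 ± 0.35, adjusted p = 9.3e-04), as was Soat1 (1.26 ± 0.30, adjusted p = 0.003). Over the 32 genes, 2 were called higher and 8 lower, where 16.2% and 6.76% of all genes tested were called in these directions at day 2 (2 and 8 after median-ratio scaling). The Pmvk call was lost without WT day 2 replicate 1 or 2 or Tet1-KO day 2 replicate 1. The 5 enzyme calls did not hold up when single libraries were left out: no enzyme was called without WT day 2 replicate 2 or without Tet1-KO day 2 replicate 1, and 2 without WT day 2 replicate 1. Without WT day 2 replicate 3 or Tet1-KO day 2 replicate 2 there were 3, and all 32 genes gave 6, 4 and 3 calls without WT day 2 replicate 1, WT day 2 replicate 2 and Tet1-KO day 2 replicate 1. Abca1, Mylip and Soat1 were called with any 1 library left out.

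At day 4 the 3 Tet1-KO libraries differed widely along the pathway, and 7 enzymes were lower than in WT (9 after median-ratio scaling), where 6.22% of all genes tested were called lower. Cyp51 had 13.3, 85.8 and 16.7 FPKM in Tet1-KO cells, against 187, 161 and 161 in WT, a log2 difference of −2.69 ± 0.54 (adjusted p = 0.0037). Pmvk had 72.6, 233 and 59.5 FPKM in Tet1-KO cells, against 425, 448 and 393 in WT (−2.15 ± 0.40, adjusted p = 0.0025). Insig1 had 10.9, 93.3 and 9.95 FPKM in Tet1-KO cells, against 158, 186 and 182 in WT (−3.02 ± 0.58, adjusted p = 0.0029). In all 3 genes the second Tet1-KO library lay between the other two and WT, and it was the Tet1-KO library nearest the WT mean for 17 of the 18 enzymes and 29 of the 32 genes. Fdps and Hmgcs1 overlapped between the groups through that library, and neither was called. Hmgcs1 had 85.8, 326 and 73.8 FPKM in Tet1-KO cells, against 281, 256 and 284 in WT. The second Tet1-KO library also had a summed adipocyte marker FPKM of 86077, against 40282 and 23238 in Tet1-KO replicates 1 and 3. In WT libraries of day 4 that sum was 89612 to 108914. The part of the markers in this spread was not tested.

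**Figure D3:**
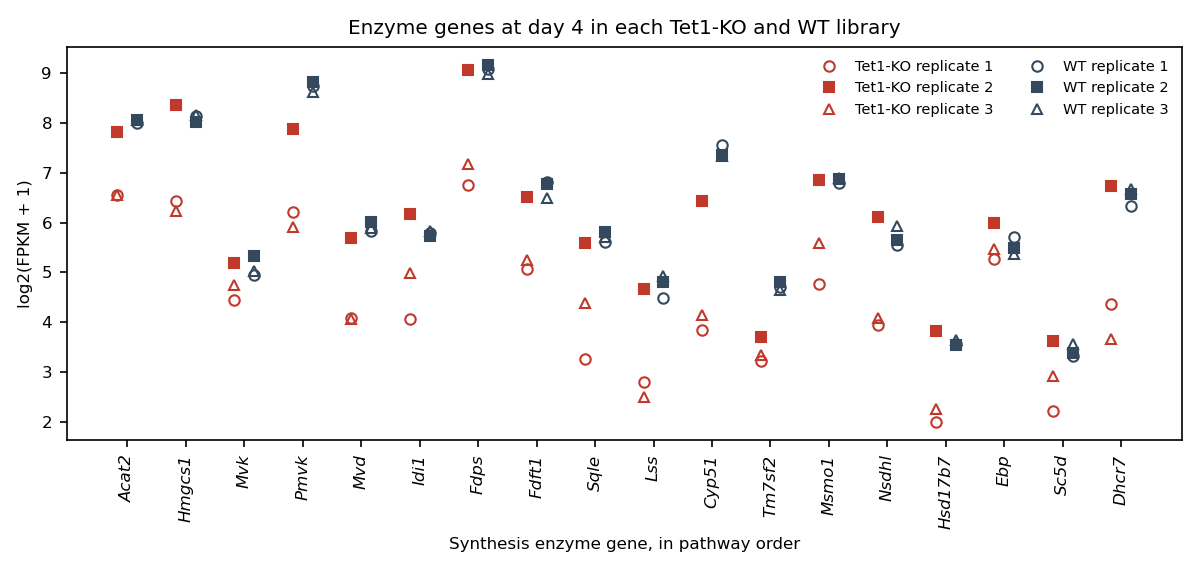
Log2(FPKM + 1) of the 18 enzymes, in pathway order, in each Tet1-KO (red) and WT (dark) library of day 4, with replicate 2 filled. The filled red squares of Tet1-KO replicate 2 sit at or near the WT points for most enzymes, while Tet1-KO replicates 1 and 3 mostly lie below them.

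Of the control and efflux genes, Srebf1, Insig1, Insig2, Abca1 and Nr1h3 were called lower in Tet1-KO cells at day 4 as well. Srebf2, Scap, Abcg1, Nr1h2 and Mylip were not called. Nr1h3 had 9.82, 19.5 and 5.75 FPKM in Tet1-KO cells, against 51.4, 65.04 and 60.5 in WT, with a log2 difference of −2.47 ± 0.29 (adjusted p = 2.4e-05). Abca1 had 2.78, 7.01 and 1.84 FPKM in Tet1-KO cells, against 16.9, 17.5 and 17.5 in WT (−2.14 ± 0.27, adjusted p = 7.6e-05). Insig2 had 10.5, 14.5 and 13.5 FPKM in Tet1-KO cells, against 35.01, 36.1 and 36.04 in WT (−1.51 ± 0.37, adjusted p = 0.015). For these genes every Tet1-KO library, the second included, lay below every WT library. The Insig2 call was lost without WT day 4 replicate 2 or Tet1-KO day 4 replicate 1 or 3, and the Cyp51 and Insig1 calls with only these 2 groups in the fit.

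Among the 32 genes, 0 were called higher and 13 lower, where 9.79% and 6.22% of all genes tested were called in these directions at day 4 (0 and 16 after median-ratio scaling). The count of lower enzymes, 7, ran from 2 without Tet1-KO day 4 replicate 1 or replicate 3 to 16 without replicate 2, and was 3 without WT day 4 replicate 2 and 11 without Tet1-KO day 6 replicate 2. The count of the 32 genes was 7 without WT day 4 replicate 2, 6 without Tet1-KO day 4 replicate 1, 23 without replicate 2 and 5 without replicate 3.

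By day 6 22 of the 32 genes were lower in Tet1-KO cells and none was higher as deposited. Over the 32, 0 were called higher and 22 lower, where 15.7% and 29.7% of all genes tested were called in these directions (1 and 19 after median-ratio scaling). The 11 enzymes called lower (9 after median-ratio scaling) included Tm7sf2, with 8.80, 1.40 and 5.52 FPKM in Tet1-KO cells, against 15.3, 29.4 and 23.1 in WT (−1.90 ± 0.35, adjusted p = 1.3e-04). Acat2 had 91.4, 60.4 and 55.4 FPKM in Tet1-KO cells, against 225, 198 and 237 in WT (−1.49 ± 0.26, adjusted p = 7.4e-05). Insig1 had 17.4, 16.4 and 8.65 FPKM in Tet1-KO cells, against 54.3, 136 and 119 in WT (−2.54 ± 0.58, adjusted p = 0.0011). The lowest WT library of each gene was above the highest Tet1-KO library. Abca1 had 4.49, 2.74 and 4.53 FPKM in Tet1-KO cells, against 34.2, 30.9 and 27.4 in WT (−2.52 ± 0.27, adjusted p = 1.0e-06). Npc1 had 2.67, 1.73 and 4.72 FPKM in Tet1-KO cells, against 14.3, 17.6 and 17.4 in WT (−1.98 ± 0.27, adjusted p = 9.5e-06). Nr1h2 was called lower (−1.56 ± 0.43, adjusted p = 0.003), with 38.9, 5.23 and 40.2 FPKM in Tet1-KO cells, where the low value belongs to the library that stood apart, against 71.9, 73.3 and 71.6 in WT. Without that library 20 genes were lower, 11 of them enzymes. With only the 2 day 6 groups in the fit 7 were lower, 2 of them enzymes, and Tm7sf2 and Nr1h2 were not called.

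The change from day 0 to day 6 was itself lower in Tet1-KO cells than in WT for 15 of the 32 genes, 10 of them enzymes (10 after median-ratio scaling), and higher for none. In this interaction test, 0 were called higher and 15 lower, where 7.16% and 10.6% of all genes tested were called in these directions (0 and 18 after median-ratio scaling). Insig1 had the largest difference of changes, −3.03 ± 0.83 (adjusted p = 0.014), followed by Tm7sf2 with −2.77 ± 0.49 and Fdps with −2.53 ± 0.70. The adipocyte markers moved alongside: their summed FPKM at day 6 was 29283 to 34173 in Tet1-KO libraries, against 63201 to 67539 in WT, and 5, 1 and 6 of the 8 were called lower in Tet1-KO cells at days 2, 4 and 6 (7, 2 and 6 after median-ratio scaling). At day 0 the sums were 271 to 451 in Tet1-KO and 93.9 to 234 in WT. All 5 mesenchymal markers were higher in Tet1-KO cells at days 2 and 4. Their part in the difference of the sterol genes was not tested.

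**Figure D4:**
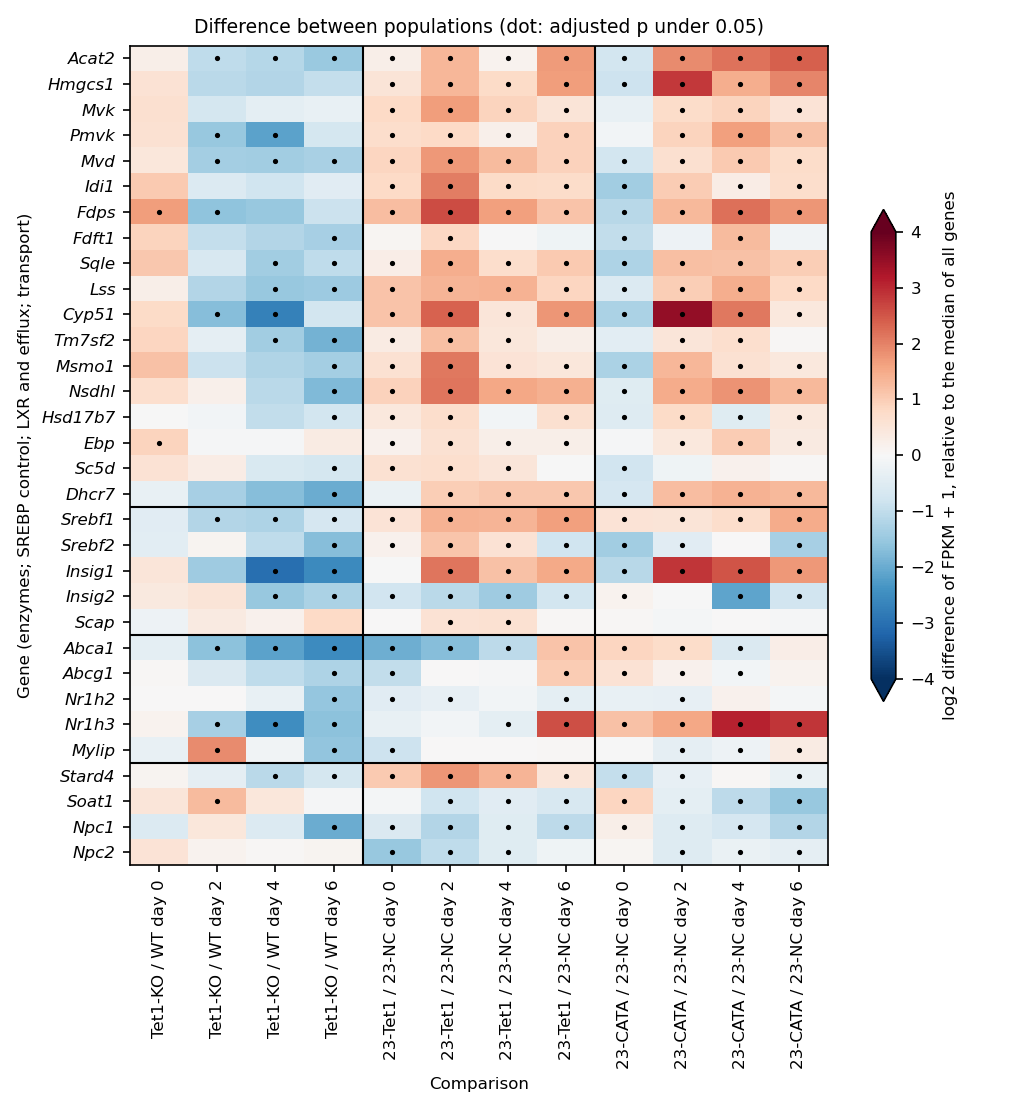
Log2 difference of FPKM + 1 between populations on the same day, relative to the all-gene median, for the 32 genes (rows) and for Tet1-KO over WT, 23-Tet1 over 23-NC and 23-CATA over 23-NC at days 0, 2, 4 and 6 (columns); a dot marks an adjusted p under 0.05. Enzyme rows are mostly blue in Tet1-KO after day 0, mostly red in 23-Tet1, and blue at day 0 but mostly red from day 2 in 23-CATA.

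The enzymes of 23-NC cells fell early in differentiation. At day 2 15 of the 18 enzymes were lower than at day 0 and 1, Hsd17b7, was higher, a call that was lost without 23-NC day 0 replicate 1 or any 1 day 2 library. After median-ratio scaling the counts were 15 and 1, and 35.1% of all genes tested were called lower and 24.4% higher. Fdps had 10.9, 10.6 and 12.8 FPKM at day 2, against 68.7, 45.1 and 49.1 at day 0 in 23-NC cells, a log2 difference of −2.07 ± 0.10 (adjusted p = 3.5e-17). Cyp51 had 4.63, 4.26 and 4.24 FPKM at day 2, against 17.3, 18.6 and 18.9 at day 0, a log2 difference of −1.78 ± 0.07 (adjusted p = 1.8e-20). Insig1 had 12.2, 12.5 and 10.3 FPKM at day 2, against 45.04, 43.4 and 41.5 at day 0 (−1.75 ± 0.05, adjusted p = 3.7e-22). Day 2 libraries of these genes lay below all day 0 libraries. Idi1, Msmo1 and Sqle fell too, with log2 differences of −1.93, −1.92 and −1.74, and Srebf2 with −1.15.

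At day 4 6 enzymes of 23-NC cells were called higher and 9 lower than at day 0 (6 and 8 after median-ratio scaling), a split near the 30.2% and 42.1% of all genes tested. At day 6 2 were higher and 12 lower (3 and 11 after median-ratio scaling), where 31.7% and 40.5% of all genes tested were called in these directions. The 2 became 1 without 23-NC day 0 replicate 2 or 3 or 23-NC day 6 replicate 2. Cyp51 averaged 18.3 ± 0.85, 4.38 ± 0.22, 25.01 ± 1.09 and 7.60 ± 0.17 FPKM at days 0, 2, 4 and 6, so that it rose above its day 0 level at day 4 and was below it at day 6. Insig2 had 164, 167 and 185 FPKM at day 4, against 43.4, 41.5 and 42.5 at day 0, and rose by 2.09 ± 0.05 (adjusted p = 4.3e-25). The next highest mean among the 20 groups was 67.2 ± 2.42 FPKM, in 23-Tet1 cells on the same day. Soat1 had 61.9, 56.5 and 60.6 FPKM at day 6, against 16.6, 18.9 and 17.9 at day 0 (1.77 ± 0.08, adjusted p = 9.6e-18), and Npc1 rose with it (1.83 ± 0.10). Abcg1 averaged 0.95 ± 0.11, 6.31 ± 0.24, 10.2 ± 1.66 and 7.65 ± 0.20 FPKM over the days and was called higher on each.

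Across all 32 genes, 8 were called higher and 20 lower, where 24.4% and 35.1% of all genes tested were called in these directions at 23-NC day 2 (8 and 19 after median-ratio scaling). At 23-NC day 4, 15 were called higher and 14 lower, where 30.2% and 42.1% of all genes tested were called in these directions (15 and 12 after median-ratio scaling). At 23-NC day 6, 12 were called higher and 16 lower, where 31.7% and 40.5% of all genes tested were called in these directions (13 and 13 after median-ratio scaling). The 8 adipocyte markers rose in 23-NC cells on each day nonetheless, with summed FPKM of 59.7 to 66.1, 2722 to 2912, 20011 to 27302 and 10532 to 11927 at days 0, 2, 4 and 6.

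The enzymes of 23-Tet1 cells changed little as a group over the days. Summed FPKM of the enzymes was 791 to 819, 651 to 696, 676 to 738 and 642 to 669 at days 0, 2, 4 and 6, and the median log2 difference from day 0 was 0.03, 0.04 and −0.13 at days 2, 4 and 6. On the 3 days 4, 6 and 4 enzymes were called higher (6, 8 and 5 after median-ratio scaling), where 28.8%, 31% and 32.8% of all genes tested were. Lower calls were made for 8, 8 and 10 (8, 7 and 8 after median-ratio scaling), where 35.6%, 40.6% and 44.7% of all genes tested were, so that the split of the enzymes lay near that of all genes. Dhcr7, at the end of the pathway, had 37.2, 32.2 and 36.1 FPKM at day 4, against 9.45, 9.18 and 10.7 at day 0, and rose by 1.82 ± 0.08 (adjusted p = 6.8e-18). Fdps had 46.1, 51.1 and 50.5 FPKM at day 6, against 133, 142 and 134 at day 0 (−1.33 ± 0.10, adjusted p = 9.9e-14), and Idi1 fell alongside (−1.57 ± 0.09).

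The log2 differences of Abca1, Abcg1 and Nr1h3 at day 6 exceeded that of every enzyme in 23-Tet1 cells. Abca1 had 67.4, 65.6 and 63.6 FPKM at day 6, against 2.49, 2.60 and 2.12 at day 0, and rose by 4.41 ± 0.16 (adjusted p = 9.1e-21). Abcg1 had 18.02, 16.7 and 17.1 FPKM at day 6, against 0.05, 0.05 and 0.06 at day 0 (4.23 ± 0.08, adjusted p = 3.8e-28), and Nr1h3 29.2, 30.8 and 28.3 FPKM, against 0.08, 0.12 and 0 (4.95 ± 0.10, adjusted p = 3.6e-27). The day 0 values of Abcg1 and Nr1h3 are near the lowest that can be resolved, so the log2(FPKM + 1) differences understate their ratios. Npc2 rose too, with 396, 413 and 427 FPKM at day 6, against 135, 135 and 137 at day 0. Srebf1 averaged 18.4 ± 1.32, 86.2 ± 6.54, 103 ± 9.98 and 67.5 ± 3.88 FPKM over the days, with its highest mean at day 4. Over the 32 genes, 14 were called higher and 10 lower, where 28.8% and 35.6% of all genes tested were called in these directions at 23-Tet1 day 2 (16 and 10 after median-ratio scaling). At 23-Tet1 day 4, 17 were called higher and 10 lower, where 31% and 40.6% of all genes tested were called in these directions (20 and 9 after median-ratio scaling). At 23-Tet1 day 6, 15 were called higher and 13 lower, where 32.8% and 44.7% of all genes tested were called in these directions (16 and 10 after median-ratio scaling).

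In 23-CATA cells most enzymes rose and stayed above day 0 to day 6. Of the 18 enzymes, 13, 17 and 16 were called higher than at day 0 at days 2, 4 and 6 (14, 18 and 17 after median-ratio scaling), where 27%, 25.8% and 27.3% of all genes tested were. Fdft1 was called lower at day 2, and the enzymes had median log2 differences of 0.82, 1.55 and 1.15. Cyp51 had 111, 109 and 94.4 FPKM at day 4, against 7.88, 6.82 and 8.26 at day 0, and rose by 3.95 ± 0.07 (adjusted p = 3.2e-28). At day 6 it had 10.9, 10.7 and 10 FPKM, a log2 difference of 0.64, while Acat2 still had 182, 188 and 179 FPKM, against 31.3, 29.3 and 31.5 at day 0. Hmgcs1 was already high at day 2, with 231, 226 and 250.4 FPKM, against 33.5, 30.6 and 31.9 at day 0 (3.00 ± 0.06, adjusted p = 1.2e-26). Insig1 had 279, 281 and 264 FPKM at day 4, against 21.4, 21.9 and 19.9 at day 0 (3.98 ± 0.05, adjusted p = 4.1e-30). Sc5d was not called on any of these days as deposited, with log2 differences of 0.01, 0.22 and 0.21, and was called higher at days 4 and 6 after median-ratio scaling.

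The other roles of 23-CATA cells moved in both directions. Insig2 averaged 50.4 ± 1.27, 42.4 ± 1.15, 36.7 ± 1.29 and 38.7 ± 1.73 FPKM at days 0, 2, 4 and 6. Srebf2 averaged 30.4 ± 1.40, 23.8 ± 1.88, 27.4 ± 0.86 and 25.95 ± 1.31 FPKM on the same days. After median-ratio scaling Srebf2 was called higher at day 4, with a log2 difference of 0.225, and was at 0.010 at day 6. No direction is therefore given for Srebf2 on these 2 days. Abca1 was highest at day 2, with 46.7, 39.01 and 41.03 FPKM, against 22.2, 24.9 and 23.4 at day 0. Nr1h3 had 29.6, 29.3 and 36.4 FPKM at day 4, against 2.11, 1.67 and 2.22 at day 0 (3.79 ± 0.10, adjusted p = 2.4e-23). Soat1 averaged 35.9 ± 0.93, 39.98 ± 3.22, 19.98 ± 2.15 and 20.5 ± 1.79 FPKM and was called lower at days 4 and 6. Among the 32 genes, 19 were called higher and 8 lower, where 27% and 45.2% of all genes tested were called in these directions at 23-CATA day 2 (21 and 4 after median-ratio scaling). At 23-CATA day 4, 21 were called higher and 6 lower, where 25.8% and 55.6% of all genes tested were called in these directions (27 and 3 after median-ratio scaling). At 23-CATA day 6, 23 were called higher and 7 lower, where 27.3% and 49.7% of all genes tested were called in these directions (24 and 3 after median-ratio scaling). Of the lower calls, Stard4 and Npc2 at day 4 and Mylip and Npc2 at day 6 lay slightly above the median of all genes, by 0.02 to 0.15, so no direction is given for them.

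**Figure D5:**
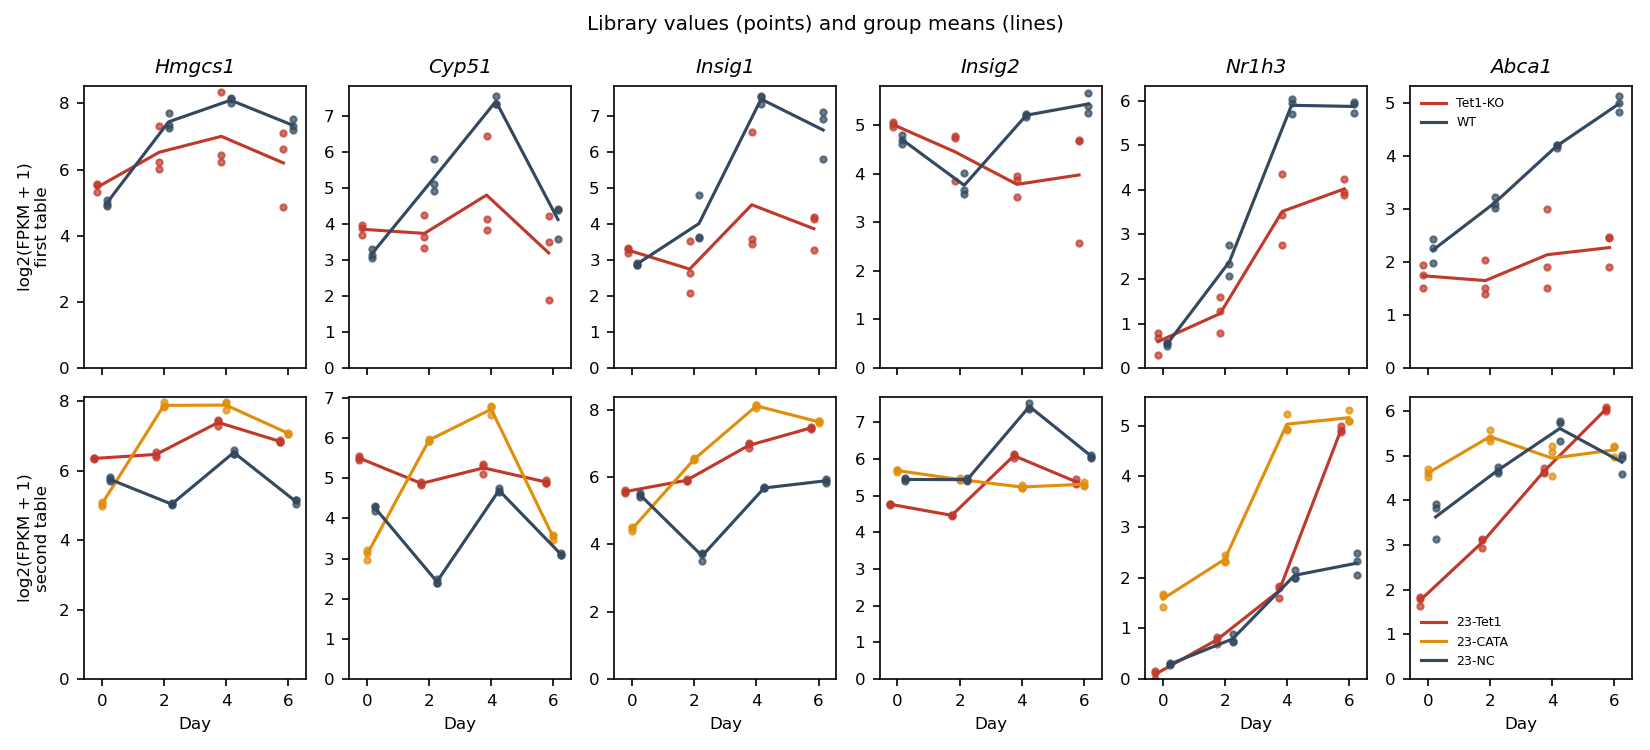
Log2(FPKM + 1) of Hmgcs1, Cyp51, Insig1, Insig2, Nr1h3 and Abca1 in each library (points) with group means (lines) by day, for Tet1-KO and WT cells (top) and 23-Tet1, 23-CATA and 23-NC cells (bottom). Cyp51 is highest at day 4 in WT, 23-CATA and 23-NC cells. It is so in Tet1-KO cells too, with replicate 2 well above the other points. Insig2 peaks at day 4 in 23-NC and 23-Tet1 cells, and Abca1 climbs to day 6 in WT and 23-Tet1 cells.

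Against 23-NC cells on the same day, 23-Tet1 cells had more of nearly every enzyme. Of the 18, 16, 18, 16 and 15 were called higher at days 0, 2, 4 and 6 (14, 18, 13 and 14 after median-ratio scaling), where 37.8%, 38.7%, 35% and 36% of all genes tested were. None was called lower as deposited, and 1 was at day 0 after that scaling. Fdps had 133, 142 and 134 FPKM in 23-Tet1 cells at day 0, against 68.7, 45.1 and 49.1 in 23-NC, a log2 difference of 1.24 ± 0.10 (adjusted p = 2.8e-12). At day 2 it had 86.2, 76.8 and 78.3 FPKM in 23-Tet1 cells, against 10.9, 10.6 and 12.8 in 23-NC (2.62 ± 0.10, adjusted p = 1.8e-19), the largest difference of the 18 at that day. Msmo1 had 84.8, 69.7 and 77.7 FPKM in 23-Tet1 cells, against 16.8, 14.5 and 16.7 in 23-NC (2.11 ± 0.10, adjusted p = 1.2e-17). Stard4 went with the enzymes, at 18.5, 18.03 and 19.8 FPKM in 23-Tet1 cells, against 4.49, 4.72 and 4.07 in 23-NC (1.77 ± 0.08, adjusted p = 6.9e-18).

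Several genes of the other roles were lower in 23-Tet1 cells, and Abca1 was lower at days 0, 2 and 4 but higher at day 6. Abca1 had 2.49, 2.60 and 2.12 FPKM in 23-Tet1 cells at day 0, against 7.81, 13.3 and 14.2 in 23-NC, a log2 difference of −1.96 ± 0.16 (adjusted p = 1.8e-11), and at day 6 67.4, 65.6 and 63.6 FPKM in 23-Tet1 cells, against 31.4, 23.2 and 30.1 in 23-NC (1.15 ± 0.16, adjusted p = 1.1e-07). Insig2 was lower in 23-Tet1 cells on each day, with 64.6, 69.4 and 67.5 FPKM at day 4, against 164, 167 and 185 in 23-NC (−1.43 ± 0.05, adjusted p = 1.3e-19). Npc2 was lower at days 0, 2 and 4, with log2 differences of −1.50, −1.02 and −0.49. Npc1 was lower on all 4 days, with −0.58, −1.18, −0.50 and −1.04.

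Across all 32 genes, 19 were called higher and 7 lower, where 37.8% and 23.5% of all genes tested were called in these directions for 23-Tet1 against 23-NC at day 0 (16 and 8 after median-ratio scaling). For the same pair at day 2, 23 were called higher and 6 lower, where 38.7% and 25.2% of all genes tested were called in these directions (23 and 6 after median-ratio scaling). At day 4, 21 were called higher and 6 lower, where 35% and 21.9% of all genes tested were called in these directions (18 and 6 after median-ratio scaling). At day 6, 21 were called higher and 5 lower, where 36% and 29% of all genes tested were called in these directions (20 and 5 after median-ratio scaling). The change from day 0 to day 6 differed between these populations for 20 genes, and 13 were called higher and 7 lower, where 29.1% and 32.3% of all genes tested were called in these directions (13 and 6 after median-ratio scaling). Abca1 and Nr1h3 had the largest such differences, 3.10 ± 0.22 and 2.89 ± 0.14 (adjusted p = 8.4e-13 and 1.1e-16). At day 0 the adipocyte markers did not run with the enzymes. Their summed FPKM was 28 to 40.1 in 23-Tet1 and 59.7 to 66.1 in 23-NC libraries. On that day 0 of 8 were called higher and 4 lower in 23-Tet1 cells, where 16 enzymes were higher. The marker sums of 23-Tet1 libraries were 1615 to 1863 at day 2 and 15726 to 16596.5 at day 4. Those of 23-NC libraries were 2722 to 2912 and 20011 to 27302. At day 6 all 8 markers were higher in 23-Tet1 cells, as were most enzymes. The part of the markers was not tested.

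23-CATA cells were below 23-NC cells in the enzymes at day 0 and above them after induction. At day 0 14 of the 18 were called lower (15 after median-ratio scaling), where 11.7% of all genes tested were, and none higher. At days 2, 4 and 6 16, 16 and 15 were called higher (16, 17 and 15 after median-ratio scaling), where 34.3%, 28.9% and 38% of all genes tested were. Cyp51 had 7.88, 6.82 and 8.26 FPKM in 23-CATA cells at day 0, against 17.3, 18.6 and 18.9 in 23-NC, a log2 difference of −1.27 ± 0.07 (adjusted p = 3.7e-15). At day 2 it had 60.5, 60.3 and 62.2 FPKM in 23-CATA cells, against 4.63, 4.26 and 4.24 in 23-NC (3.50 ± 0.07, adjusted p = 4.4e-27). Srebf2 had 30.8, 31.6 and 28.9 FPKM in 23-CATA cells at day 0, against 65.8, 82.2 and 80.8 in 23-NC (−1.40 ± 0.08, adjusted p = 6.8e-14), and was lower at days 2 and 6 too (−1.32 ± 0.08 at day 6). Hsd17b7 was the enzyme called lower at day 4 (−0.48 ± 0.11, adjusted p = 5.4e-05).

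Insig1 and Insig2 parted at day 4. Insig1 had 279, 281 and 264 FPKM in 23-CATA cells, against 49.6, 50.5 and 49.9 in 23-NC, a log2 difference of 2.52 ± 0.05 (adjusted p = 4.9e-25). Insig2 had 35.7, 36.2 and 38.1 FPKM in 23-CATA cells, against 164, 167 and 185 in 23-NC (−2.11 ± 0.05, adjusted p = 2.9e-25). Nr1h3 was higher in 23-CATA cells on each day, with 29.6, 29.3 and 36.4 FPKM at day 4, against 3.0, 2.97 and 3.44 in 23-NC (3.06 ± 0.10, adjusted p = 5.2e-21). Soat1 was higher in 23-CATA cells at day 0 (0.87 ± 0.08) and lower from day 2, with 22.6, 19.4 and 19.5 FPKM at day 6, against 61.9, 56.5 and 60.6 in 23-NC (−1.51 ± 0.08, adjusted p = 2.2e-16).

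Over the 32 genes, 7 were called higher and 17 lower, where 31.6% and 11.7% of all genes tested were called in these directions for 23-CATA against 23-NC at day 0 (7 and 19 after median-ratio scaling). For this pair at day 2, 21 were called higher and 7 lower, where 34.3% and 30.7% of all genes tested were called in these directions (20 and 8 after median-ratio scaling). On day 4, 19 were called higher and 8 lower, where 28.9% and 39.9% of all genes tested were called in these directions (21 and 6 after median-ratio scaling). On day 6, 19 were called higher and 6 lower, where 38% and 36.4% of all genes tested were called in these directions (19 and 6 after median-ratio scaling). The change from day 0 to day 6 was higher in 23-CATA cells for 16 of the 18 enzymes (17 after median-ratio scaling) and lower for none, and over the 32 genes 21 were called higher and 6 lower, where 27.5% and 36% of all genes tested were called in these directions (22 and 6 after median-ratio scaling). Acat2 and Fdps led it with 3.11 ± 0.10 and 2.89 ± 0.14 (adjusted p = 3.3e-20 and 5.0e-16), and Soat1 was at the other end with −2.38 ± 0.11 (adjusted p = 2.2e-17). All 8 adipocyte markers were higher in 23-CATA cells on each day, day 0 included, where their summed FPKM was 2432 to 2591, against 59.7 to 66.1 in 23-NC, and 14 enzymes were lower on that same day. The 23-Tet1 and 23-CATA comparisons share the 23-NC libraries. The part of the markers was not tested.

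Set side by side, the populations differed in the day on which a role stood highest. Of the 18 enzymes, 17 had their highest mean at day 4 in Tet1-KO cells, 17 in WT cells and 16 in 23-CATA cells, while in 23-Tet1 cells 8 and in 23-NC cells 9 had it at day 0. The Tet1-KO day 4 means include replicate 2, with a summed enzyme FPKM of 2104, against 584 and 657.5 in replicates 1 and 3. The day of the highest mean was not computed without that library. Abca1, Abcg1 and Nr1h2 had their highest mean at day 6 in WT cells, and Abca1, Abcg1, Nr1h2 and Nr1h3 in 23-Tet1 cells. Scap stayed between 8.15 and 29.8 FPKM in all 60 libraries, its highest value being in Tet1-KO day 6 replicate 2. Nr1h2 stayed between 5.23 and 73.3 FPKM, its lowest value being in that same library. The tables were not tested against each other.

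Neighbouring pathways gave other counts. Of 9 genes of the nonsterol isoprenoid branch, which starts from farnesyl diphosphate, 6 were higher and 2 lower in WT cells at day 4 (7 and 1 after median-ratio scaling), where 18.1% and 49.2% of all genes tested were called in these directions. Their median log2 difference was 1.17, against 3.40 for the enzymes. At 23-NC day 2, where 15 enzymes were lower, 3 of the 9 were higher and 0 lower (4 and 0 after median-ratio scaling), where 24.4% and 35.1% of all genes tested were. In 23-Tet1 against 23-NC at day 2, where all 18 enzymes were higher, 4 of the 9 were higher and 2 lower (2 and 2 after median-ratio scaling), counts near the 38.7% and 25.2% of all genes tested. Of 25 further genes of sterol handling (SREBP proteases, sterol carriers, oxysterol enzymes and lipoprotein receptors), 21 were tested in the first table and 20 in the second. In WT cells at day 4 6 of the 21 were higher and 11 lower (8 and 7 after median-ratio scaling), and 18.1% and 49.2% of all genes tested were called in these directions. At 23-CATA day 4 9 of the 20 were higher and 10 lower (12 and 5 after median-ratio scaling), where 25.8% and 55.6% of all genes tested were. The lower calls of both groups were near the share of all genes.

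Fatty acid synthesis is the other pathway driven by SREBPs. At 23-NC day 2 5 of its 8 genes were higher and 1 lower, where 1 cholesterol enzyme was higher and 15 lower (5 and 0 of the 8 after median-ratio scaling), and 24.4% and 35.1% of all genes tested were called in these directions. Its median log2 difference there was 0.48, against −0.76 for the cholesterol enzymes. In WT cells at day 6 its median was 1.94 with 6 of 8 higher (7 after median-ratio scaling), where 19.2% of all genes tested were. Its median log2(FPKM + 1) ranged from 6.71 to 7.55 at day 6, against 6.68 to 7.06 at day 4, while that of the cholesterol enzymes ranged from 4.25 to 4.86 at day 6, against 5.81 to 5.91 at day 4. In Tet1-KO against WT at day 6 6 of the 8 were lower (6 after median-ratio scaling), where 29.7% of all genes tested were, and none was higher. In 23-CATA against 23-NC at day 0 2 of the 8 were higher and 0 lower, against 0 and 14 of the cholesterol enzymes (2 and 2 against 0 and 15 after median-ratio scaling). Of all genes tested, 31.6% and 11.7% were called in these directions there.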

How the data were processed

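Polyadenylated RNA of 60 samples was measured, 20 groups of 3 libraries. The authors deposited estimated gene expression as FPKM in 2 tables, 1 with 24 and 1 with 36 libraries. STAR 2.4.1a, RSEM and the mm10 build are named in the submitters' processing notes. The tables hold no counts, so the depth given is an estimate from the step between low FPKM values of 3163 genes with 1 transcript, and no counting interval was computed. Each table was analysed alone.

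Genes with at least 1 FPKM in at least 3 libraries of a table were tested with limma 3.58.1 in R 4.3.3 on log2(FPKM + 1), with a mean-variance trend and all groups of the table in 1 fit. P-values were adjusted by the Benjamini-Hochberg method over all genes tested, and an adjusted p under 0.05 was called, over 30 comparisons, 3 of them tests of whether the day 6 change differs between populations. Log2 differences are on the log2(FPKM + 1) scale, which understates changes of low genes, and are printed after subtracting the median over all genes tested. Their p-values and standard errors are those of the differences before this step. Genes were named where called, with groups that did not overlap and a log2 difference of at least 1, together with members of each role given for completeness. Some named genes fall outside this rule and were chosen after their values were seen. The members and the lists were chosen with earlier results of these data known. The test was checked on simulated data, with the same spread in every group of a table. Of changes of 1 log2 unit it recovered 54% in the first table and 98% in the second. Of changes of 2 log2 units it recovered 94% and 100%. A gene not called in the first table may thus still have changed. Python 3.11.15 was used for tables and figures, with pandas 2.3.3, matplotlib 3.10.9 and numpy 2.4.6.

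Every fit was repeated without the filter, with median-ratio scaling, with quantile normalisation, with 0.1 FPKM as the pseudocount, with library weights, with only the compared groups, with a replicate block, and with each library left out in turn. Whether same-numbered replicates pair was checked in 27 comparisons: the correlations of their deviations from the group means ran from −0.468 to 0.42, and every pair was over 0.1 in 1 comparison, 23-CATA against 23-NC at day 4.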

Additional observations from a re-analysis of the deposited data

Results flagged for a closer look

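The change from day 0 to day 6 differed between populations by a test of the difference itself (limma interaction term, Benjamini-Hochberg adjusted p under 0.05, size of at least 1 on the log2 scale) for 15 genes in Tet1-KO against WT, 9 in 23-Tet1 against 23-NC and 16 in 23-CATA against 23-NC. The values are differences of log2 changes relative to the all-gene median.

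In Tet1-KO against WT the enzymes had −1.74 for Acat2, −1.77 for Mvd, −2.53 for Fdps, −2.21 for Fdft1, −2.12 for Sqle, −1.69 for Lss, −2.77 for Tm7sf2, −2.52 for Msmo1, −2.44 for Nsdhl and −1.30 for Sc5d. The other genes of this pair had −3.03 for Insig1, −1.68 for Insig2, −2.14 for Abca1, −1.80 for Nr1h3 and −1.45 for Npc1. All 15 changes were lower in Tet1-KO cells.

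In 23-Tet1 against 23-NC the enzymes had 1.47 for Acat2, 1.17 for Hmgcs1 and 1.36 for Dhcr7. The other genes had 1.10 for Srebf1, 1.51 for Insig1, 3.10 for Abca1, 2.00 for Abcg1, 2.89 for Nr1h3 and 1.33 for Npc2. All 9 changes were higher in 23-Tet1 cells.

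In 23-CATA against 23-NC the enzymes had 3.11 for Acat2, 2.78 for Hmgcs1, 1.29 for Pmvk, 1.48 for Mvd, 2.09 for Idi1, 2.89 for Fdps, 2.20 for Sqle, 1.33 for Lss, 1.68 for Cyp51, 1.71 for Msmo1, 1.79 for Nsdhl and 1.97 for Dhcr7. The other genes here had 2.85 for Insig1, 1.68 for Nr1h3, −2.38 for Soat1 and −1.41 for Npc1. The changes of Soat1 and Npc1 were lower in 23-CATA cells, and those of the other 14 genes were higher. The 2 pairs of the second table share the 23-NC libraries.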

How the results depend on the processing

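The counts of called genes over all 32 in the second table stayed within 1.5 times under every alternative run, and so did those over the 32 in the WT time courses and in the difference of the Tet1-KO and WT changes. Those of Tet1-KO cells did not. With library weights 9 genes in place of 4 were called at Tet1-KO day 2 and 6 in place of 10 at day 6, and without the filter also 6 at day 6. For Tet1-KO against WT, library weights gave 22 at day 0, 22 at day 2 and 28 at day 4, against 2, 10 and 13 in the reported fit. With only the compared groups in the fit the counts were 2 for Tet1-KO day 6 and 21, 7 and 7 for Tet1-KO against WT at days 0, 4 and 6. At day 0 of that pair quantile normalisation gave 6 and no filter 1. Leaving out 1 library gave 2 to 6 calls at Tet1-KO day 2, 9 to 17 at day 4 and 4 to 13 at day 6, and 1 to 6, 3 to 15 and 5 to 23 for Tet1-KO against WT at days 0, 2 and 4. Counts of the enzymes alone moved further: in WT cells at day 2 they were 8 in place of 13 without WT day 2 replicate 2, and at 23-NC day 6 the 2 called higher ran from 1 to 3 with 1 library left out. The cause was not tested.

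Some fitted log2 differences that were called as deposited or after the scaling changed sign with it, all in the second table. Sign changes of differences called in neither fit were not counted, in either table. With quantile normalisation they were 0.183 for Lss at 23-NC day 4, and in 23-CATA cells 0.118, 0.262 and 0.128 for Stard4 at days 2, 4 and 6, 0.348 and 0.293 for Sc5d at days 4 and 6, and −0.103 for Insig2 in 23-CATA against 23-NC at day 2. With median-ratio scaling, in 23-CATA cells at day 4, they were 0.221 for Sc5d, 0.225 for Srebf2, 0.238 for Npc1 and 0.197 for Npc2. At day 6 they were 0.205 for Sc5d, 0.010 for Srebf2, 0.056 for Mylip and 0.036 for Npc2. The cause was not tested.

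The replicate number as a block moved no count over the 32 genes by over 1.5 times, for example 14 in place of 13 genes for Tet1-KO against WT at day 4 and 29 in place of 30 at 23-CATA day 6. Single genes kept their side of the threshold under the block in 343 of 352 results of the first table and 605 of 608 of the second. Groups of 3 libraries limit the precision, and most of all in Tet1-KO cells, whose libraries differed widely among themselves.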
